A study of Homo sapiens with 18 samples.

Results

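Notch signalling passes between touching cells, and 10 of its genes are described here in HEK293A, an adherent human embryonic kidney cell line, with and without the Hippo pathway kinases LATS1 and LATS2. They comprise the receptors NOTCH1, NOTCH2 and NOTCH3, the ligands JAG1, JAG2 and DLL1, and the transcriptional repressors HES1, HEY1, HEY2 and HEYL. They are 10 of the 58336 genes in the deposited count table and were taken by name, chosen by their measured counts and changes across all 6 groups in earlier results of these data. All 10 passed the filter on low counts, as did 19393 genes in all. Their levels and the changes between the 6 groups are therefore given as a description, without p-values, and a gene is said to rise or fall only where its change had a Benjamini-Hochberg adjusted p under 0.05 in edgeR's quasi-likelihood test over all tested genes.

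A Notch ligand on one cell binds a receptor on its neighbour, and the pull of ligand endocytosis lets ADAM proteases and then gamma-secretase cut the receptor. The freed intracellular domain enters the nucleus, where it joins the DNA-binding protein RBPJ and a Mastermind-like coactivator and turns corepression of target genes into activation. HES and HEY genes are the classical direct targets, and their products are basic helix-loop-helix repressors, of which HES1 is known to repress its own gene. The measurements here are of mRNA, so receptor cleavage itself was not measured.

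RNA was sequenced from wild-type HEK293A cells and from cells of the same line labelled as LATS1 and LATS2 double knockout. Each genotype was kept for 4 h in water, in ZnCl2 at 250 uM or in CdCl2 at 50 uM, giving 6 groups of 3 libraries. The labels call the replicates biological without naming separate cultures or days, so the errors cover the spread between these 3 libraries. They do not say whether the knockout is 1 clone, so an effect of genotype and one of the line cannot be told apart. No agent other than the metals is named, and every group carries the parental HEK293A background.

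The promoters of the genes are shown first, because the Notch effector RBPJ, the metal-responsive factor MTF1, the heat shock factor HSF1 and the HES/HEY repressors each bind short DNA motifs that can be sought in them. RefSeq promoters on GRCh38.p14, each running from 250 bases before to 50 after a gene's start, were matched by symbol for 8 of the 10 genes (not DLL1 and HEY1). The RBPJ motif GTGGGAA, searched on both strands, was in 3 of the 8 promoters, those of HES1, HEY2 and HEYL, and in 6.25% of 35116 promoters of the same length. HES1 is printed because it is the textbook RBPJ target, with its single match in capitals, at bases -85 to -79 from the start. JAG1, the ligand that changed in opposite directions in the 2 metals, is printed as a promoter without that motif. For each, the 250 bases before the start are given 5′ to 3′ on the gene's strand, chr3:194135898-194136147 on the plus strand for HES1 and chr20:10674000-10674249 on the minus strand for JAG1.
HES1: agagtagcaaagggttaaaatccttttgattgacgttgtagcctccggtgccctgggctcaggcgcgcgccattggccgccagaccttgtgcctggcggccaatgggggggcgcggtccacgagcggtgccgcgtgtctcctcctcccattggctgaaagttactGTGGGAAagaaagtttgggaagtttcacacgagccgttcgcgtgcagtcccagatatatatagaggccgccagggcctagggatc
JAG1: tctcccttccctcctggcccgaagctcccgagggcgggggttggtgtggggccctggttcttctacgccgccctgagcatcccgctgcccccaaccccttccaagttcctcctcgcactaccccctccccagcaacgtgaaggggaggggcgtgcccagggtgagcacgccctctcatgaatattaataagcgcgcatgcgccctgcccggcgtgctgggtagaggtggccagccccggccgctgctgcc
For the other promoters with the motif, 27 bases around 1 match are shown, in capitals as the reverse complement TTCCCAC. HEY2 lies at chr6:125749409-125749435 on the plus strand and HEYL at chr1:39639805-39639831 on the minus strand. Both windows lie within the gene spans that GENCODE 29 gives, since RefSeq's start used here lies inside them. All 250 bases before that start of HEYL, and 52 of those of HEY2, are in GENCODE 29 exons, against 3 for HES1 and 0 for JAG1.
HEY2: cgcggccgcgTTCCCACgcctcggctg
HEYL: gcctagggccTTCCCACggctcggcgg

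HEY2 held another RBPJ match, at bases -4 to 3. The HES/HEY motif CACGNG was in 5 of the 8 promoters and in 30.5% of all promoters, and the HES1 promoter held 4 matches, starting at bases -132, -120, -58 and -47. The letters TGCNCNC, a loose form of the MTF1 motif that takes any base at each N, were in 7 of the 8 and in 55.9% of all promoters. A stricter form with A or G at the first N was not sought, and the matches in NOTCH3 and HEY2 held C there. The 1 match of TGCNCNC in HES1, at bases -46 to -40, overlapped the HES/HEY match that starts at base -47. The HSF1 motif GAANNTTC was in 1 of the 8, HES1 at bases -67 to -60, and in 6.77% of all promoters. The motifs GGAATG of TEAD proteins, the DNA-binding partners of YAP and TAZ, and TGANTCA of AP-1 were in 0 of the 8, against 14.0% and 7.71% of all promoters. All motifs were sought on both strands, and a match is a description of letters, not of binding.

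Total counts per library ran from 25478614 to 37148046, and the 10 genes had from 96 counts (HEY2) to 12441 (NOTCH2) in a library. Chi-square values between libraries of a group, divided by their degrees of freedom, ran from 1.61 to 5.04, where sampling noise alone gives about 1. The highest were those of replicate 3 of zinc-treated wild type against replicates 1 and 2 (4.96 and 5.04). LATS1 lay at 77.2 to 97.2 CPM (the count as a share of the library's TMM-scaled total) in libraries labelled wild type and at 44.0 to 54.5 CPM in those labelled knockout. LATS2 in water was slightly higher in the knockout libraries, at 18.2 to 18.9 against 16.2 to 16.5 CPM. It was lower there in zinc, at 36.0 to 40.3 against 44.3 to 50.1 CPM, and in cadmium, at 23.8 to 25.7 against 39.0 to 44.7 CPM. The 8 marker genes of HEK293 cells, of which 7 were tested, summed to 900 to 1119 CPM in wild type and 2823 to 3144 CPM in the knockout. Under each treatment 6 of the 7 were called higher in the knockout and 1 lower. The shares of all tested genes called were 62.9% in water, 66.7% in zinc and 67.1% in cadmium. PAX2 had 2 to 9 counts in a library. Summed markers of fibroblasts were 8.67 to 12.8 against 50.3 to 63.7 CPM, of endothelium 1.27 to 2.07 against 4.69 to 5.93 CPM, and of epithelium 0.028 to 0.273 against 0.59 to 1.13 CPM. These 4 sums move with genotype, and their part in the genotype differences below was not tested. The 5 blood cell markers, of which HBB was at 0 in every group and PTPRC in 3 of 6 groups, moved with the metals. Their sum in wild-type water libraries was 0.66 to 0.997 CPM, against 1.95 to 2.7 CPM with zinc and 1.46 to 1.57 CPM with cadmium. Knockout libraries gave 0.493 to 0.815 CPM without metal, 1.05 to 1.76 CPM with zinc and 0.629 to 1.14 CPM with cadmium. CD14, the 1 of them that was tested, made up most of these sums, and their part in the metal changes was not tested. In bulk RNA, fewer cells of a kind and less RNA per cell cannot be told apart.

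JAG1 (ENSG00000101384, GRCh38 chromosome 20, 10637684 to 10673999) encodes a membrane ligand of the Jagged class. Wild-type libraries had 49.6, 48.8 and 45.5 CPM in water, 73.6, 72.5 and 64.7 CPM in zinc and 31.5, 29.6 and 25.2 CPM in cadmium. In wild type, zinc thus lay above water and cadmium below it, with no overlap among the 3 groups. JAG1 rose by 0.55 ± 0.05 (log2 fold change ± SE) in zinc and fell by 0.73 ± 0.06 in cadmium. Knockout libraries had 53.1, 50.8 and 51.5 CPM in water, 70.7, 66.8 and 69.3 CPM in zinc and 41.2, 40.5 and 39.8 CPM in cadmium. The order was the same as in wild type, with a rise of 0.41 ± 0.05 and a fall of 0.35 ± 0.05. Among the 10 genes, only JAG1 was called higher in zinc and lower in cadmium in both genotypes; NOTCH1 moved that way in wild type, but its cadmium change was small.

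JAG2 (ENSG00000184916, chromosome 14, 105140981 to 105168824), the other Jagged ligand, separated the genotypes most among the ligands. Wild-type libraries had 68.7, 71.1 and 70.3 CPM in water, 49.5, 48.9 and 52.8 CPM in zinc and 34.7, 33.9 and 30.6 CPM in cadmium. JAG2 fell by 0.47 ± 0.05 in zinc and by 1.08 ± 0.06 in cadmium. In the knockout the libraries lay at 23.7, 22.8 and 24.1 CPM in water, 23.3, 21.6 and 19.3 CPM in zinc and 18.6, 16.6 and 14.5 CPM in cadmium. Every knockout library, whatever the treatment, was below every wild-type library. The knockout difference in water was -1.57 ± 0.06, the lowest of the 10 genes. Knockout JAG2 fell by 0.50 ± 0.07 in cadmium, and its change in zinc, -0.14 ± 0.07, was not called.

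DLL1 (ENSG00000198719, chromosome 6, 170282206 to 170306565), a Delta-class ligand, was the least abundant of the ligands by CPM. Wild-type libraries had 10.8, 11 and 10.5 CPM in water, 7.38, 6.93 and 8.39 CPM in zinc and 7.07, 6.66 and 7.67 CPM in cadmium. Both metals lowered it, by 0.51 ± 0.08 and 0.59 ± 0.08 on the log2 scale, and the zinc and cadmium libraries overlapped. Knockout libraries had 12.8, 13 and 12.6 CPM in water, 10.8, 9.68 and 9.56 CPM in zinc and 6.40, 6.09 and 6.51 CPM in cadmium. Here the 3 groups lay apart, with falls of 0.35 ± 0.07 and 1.01 ± 0.08. DLL1 overlaps FAM120B on the opposite strand, and 1.27% of its counts came from the strand opposite to most reads, the highest share of the 10 genes.

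NOTCH1 (ENSG00000148400, chromosome 9, 136494433 to 136545786) is the receptor that rose. Wild-type libraries had 85.0, 85.2 and 80.8 CPM in water, 139, 128 and 126 CPM in zinc and 79.6, 80.5 and 75.1 CPM in cadmium. The rise in zinc was 0.65 ± 0.04, while the call in cadmium rested on a change of -0.09 ± 0.04 and was lost in 9 of 26 alternative analyses. Among these were leaving out replicate 1 (-0.10) or replicate 3 (-0.06) of cadmium-treated wild type and leaving out replicate 1 (-0.09) or replicate 2 (-0.08) of wild type in water. Knockout libraries had 91.4, 91.3 and 96 CPM in water, 185, 193 and 174 CPM in zinc and 137, 135 and 128 CPM in cadmium. In the knockout both metals lay above water, with rises of 0.98 ± 0.04 and 0.52 ± 0.04. Zinc-treated knockout cells had the highest NOTCH1 of the 6 groups, and cadmium-treated knockout and zinc-treated wild-type libraries overlapped.

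NOTCH2 (ENSG00000134250, chromosome 1, 119911553 to 120069626) was the most abundant of the 10 genes by CPM. Wild-type libraries had 292, 308 and 295 CPM in water, 225, 233 and 226 CPM in zinc and 175, 184 and 163 CPM in cadmium. It fell by 0.39 ± 0.03 in zinc and by 0.78 ± 0.03 in cadmium, where NOTCH1 had risen or hardly moved. Knockout libraries had 305, 313 and 312 CPM in water, 238, 248 and 256 CPM in zinc and 233, 241 and 250.0 CPM in cadmium. Falls were 0.32 ± 0.03 and 0.36 ± 0.03, and the zinc and cadmium libraries of the knockout overlapped. NOTCH2 has a near-identical partial copy, NOTCH2NLA, with 12 to 60 counts in a library, and how reads were divided between them is not given in the sources used here.

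NOTCH3 (ENSG00000074181, chromosome 19, 15159038 to 15200981) was the least abundant receptor. Wild-type libraries had 16.9, 15.7 and 17.1 CPM in water, 13.4, 15.1 and 14.6 CPM in zinc and 7.70, 8.91 and 8.10 CPM in cadmium. Cadmium-treated wild type was the lowest group, with a fall of 1.01 ± 0.07. The fall in zinc was 0.20 ± 0.07, and without replicate 1 of zinc-treated wild type it was -0.16 and no longer called. Knockout libraries had 21.6, 21.0 and 20.2 CPM in water, 20.1, 19.6 and 19.7 CPM in zinc and 15.4, 15.5 and 17.9 CPM in cadmium. NOTCH3 fell by 0.36 ± 0.06 in cadmium, and the zinc change of -0.08 ± 0.06 was not called.

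**Figure D1:**
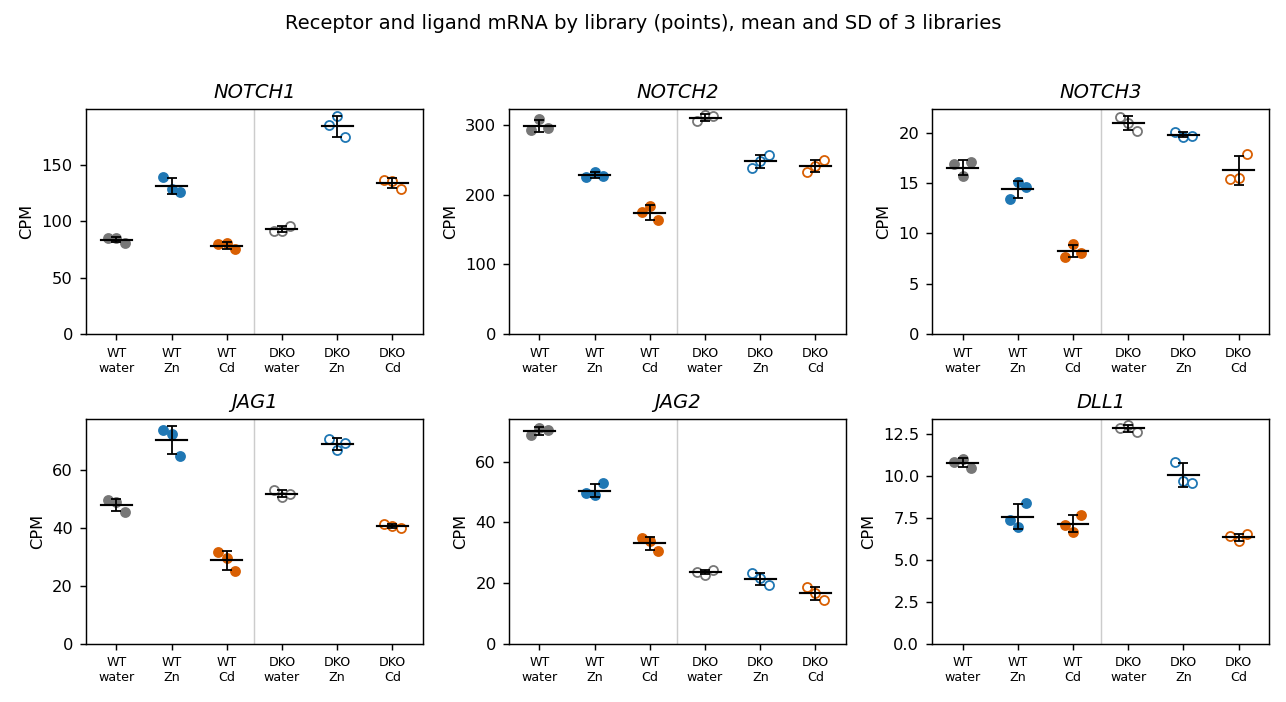
Receptor and ligand mRNA in CPM (vertical axis, from 0) in the 6 groups, with wild type (WT, filled points) left and knockout (DKO, open points) right of the line. Each point is 1 library, and bars give the mean and SD of 3 libraries. NOTCH1 is highest in the zinc group of each genotype, NOTCH2 is highest in water, and all JAG2 points of the knockout lie below those of wild type.

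HES1 (ENSG00000114315, chromosome 3, 194136145 to 194138732) was lowered by both metals in both genotypes, and more by zinc. Wild-type libraries had 32.3, 31.8 and 32.4 CPM in water, 9.65, 11.2 and 8.84 CPM in zinc and 25.1, 21.2 and 19.5 CPM in cadmium. The 3 groups did not overlap, and HES1 fell by 1.70 ± 0.08 and 0.55 ± 0.07. Knockout libraries had 19.8, 19.1 and 23.1 CPM in water, 9.10, 9.34 and 10.6 CPM in zinc and 15.4, 15.4 and 14.8 CPM in cadmium. The knockout started lower, and its zinc libraries overlapped those of zinc-treated wild type. Its falls were 1.10 ± 0.08 in zinc and 0.45 ± 0.08 in cadmium.

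HEY1 (ENSG00000164683, chromosome 8, 79764010 to 79767863) showed the widest range of the 4 repressors. Wild-type libraries had 35.6, 40.1 and 33.3 CPM in water, 7.96, 6.99 and 7.54 CPM in zinc and 15.6, 13.5 and 12.2 CPM in cadmium. HEY1 fell by 2.27 ± 0.08 in zinc and by 1.40 ± 0.07 in cadmium, each the lowest change of the 10 genes in that comparison. Knockout libraries had 20.5, 21.0 and 20.9 CPM in water, 16.8, 15.5 and 15.3 CPM in zinc and 26.1, 25.1 and 24.4 CPM in cadmium. Cadmium thus lay above water in the knockout, with a rise of 0.28 ± 0.07, where it lay below water in wild type. The fall in zinc was 0.39 ± 0.07.

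HEY2 (ENSG00000135547, chromosome 6, 125747664 to 125761269) followed neither HES1 nor HEY1. Wild-type libraries had 8.28, 9.17 and 9.52 CPM in water, 9.89, 9.48 and 10.5 CPM in zinc and 12.8, 10.9 and 10.8 CPM in cadmium. It rose by 0.35 ± 0.09 in cadmium, while zinc overlapped water (0.14 ± 0.09, not called). Knockout libraries had 5.07, 4.10 and 5.55 CPM in water, 5.75, 4.86 and 5.57 CPM in zinc and 4.49, 3.77 and 3.96 CPM in cadmium. The metal groups of the knockout each overlapped water, and neither change (0.13 ± 0.11 in zinc and -0.26 ± 0.12 in cadmium) was called. Every knockout library was below every wild-type library.

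HEYL (ENSG00000163909, chromosome 1, 39624153 to 39639945) had the opposite genotype order, with more mRNA in the knockout under each treatment. Wild-type libraries had 8.40, 9.96 and 9.18 CPM in water, 4.81, 4.95 and 5.20 CPM in zinc and 6.67, 7.68 and 6.83 CPM in cadmium. Knockout libraries had 15.6, 16.1 and 16.3 CPM in water, 10.3, 9.71 and 9.95 CPM in zinc and 12.6, 12.5 and 11.4 CPM in cadmium. Zinc was the lowest and water the highest group in each genotype. HEYL fell by 0.88 ± 0.09 and 0.39 ± 0.08 in zinc- and cadmium-treated wild type, and by 0.68 ± 0.07 and 0.40 ± 0.07 in the knockout.

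**Figure D2:**
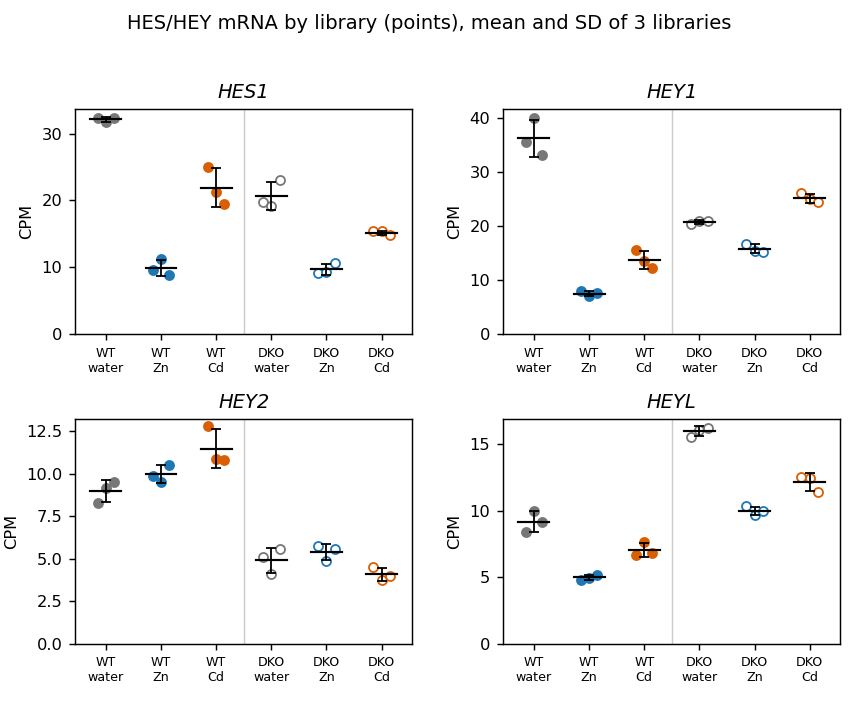
HES and HEY mRNA in CPM (vertical axis, from 0) in the 6 groups, drawn as for the receptors and ligands, with 1 point a library and the mean and SD of 3 libraries. Zinc gives the lowest HES1, HEY1 and HEYL points of each genotype, HEY1 in cadmium lies below water in wild type and above it in the knockout, and HEY2 hardly moves with zinc.

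Per kilobase of annotated exon, NOTCH2 led in wild type in water at 17.8 CPM per kb. The length joins all annotated exons of a gene, 16807 bases for NOTCH2 and 10377 for NOTCH1. It can exceed the length of the mRNA made, so the order of genes on this scale depends on it. HES1 followed at 15.6, HEY1 at 11.2, JAG2 at 10.9, NOTCH1 at 8.06 and JAG1 at 5.16 CPM per kb. The lowest were DLL1 at 3.34, HEY2 at 3.28, HEYL at 2.51 and NOTCH3 at 1.76 CPM per kb. Among receptors, NOTCH1 stood at 12.6 against 13.6 CPM per kb for NOTCH2 in zinc-treated wild type. In the zinc-treated knockout NOTCH1, at 17.7 CPM per kb, was above NOTCH2 at 14.7, the one group in which it led on this scale. By CPM NOTCH2 was the higher there, at 248 against 184 CPM, so this order rests on the lengths used. Among ligands, JAG2 led in wild type in water, and JAG1 led in the knockout in water at 5.57 against 3.68 CPM per kb. Among repressors, HEYL at 2.73 and HEY1 at 4.90 CPM per kb stood beside HES1 at 4.70 in the zinc-treated knockout.

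Counting the 10 genes per comparison, zinc in wild type raised 2 (NOTCH1 and JAG1) and lowered 7, with a median log2 change of -0.43, against 61.3% of all tested genes called (29.4% higher and 32.0% lower) and a median of -0.01. In wild type with cadmium, 1 (HEY2) was higher and 9 were lower, with a median of -0.66, against 61.7% of all genes called (30.0% higher and 31.7% lower) and a median of -0.01. Zinc in the knockout raised 2, again NOTCH1 and JAG1, and lowered 5, with a median of -0.23 and 55.9% of all genes called (28.2% higher and 27.7% lower). Cadmium in the knockout raised NOTCH1 and HEY1 and lowered 7, with a median of -0.36 and 47.0% of all genes called (23.2% higher and 23.8% lower). The comparisons within a genotype share its water libraries, and those between metals share the treated libraries. The genes were chosen with these changes known, so nothing is read from the counts. Scaling by library size alone, in place of TMM factors, lowered the share of higher genes among all called ones from 48.6% to 35.5% for cadmium in wild type, from 49.3% to 28.8% for cadmium in the knockout and from 50.4% to 37.2% for zinc in the knockout. It moved the median of all genes to -0.13 and -0.12 for cadmium in wild type and in the knockout, and the called changes of the 10 genes kept their direction and call. Among them, with cadmium, it moved HEY1 in the knockout to 0.17, HEY2 in wild type to 0.23 and NOTCH1 in wild type to -0.21.

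**Figure D3:**
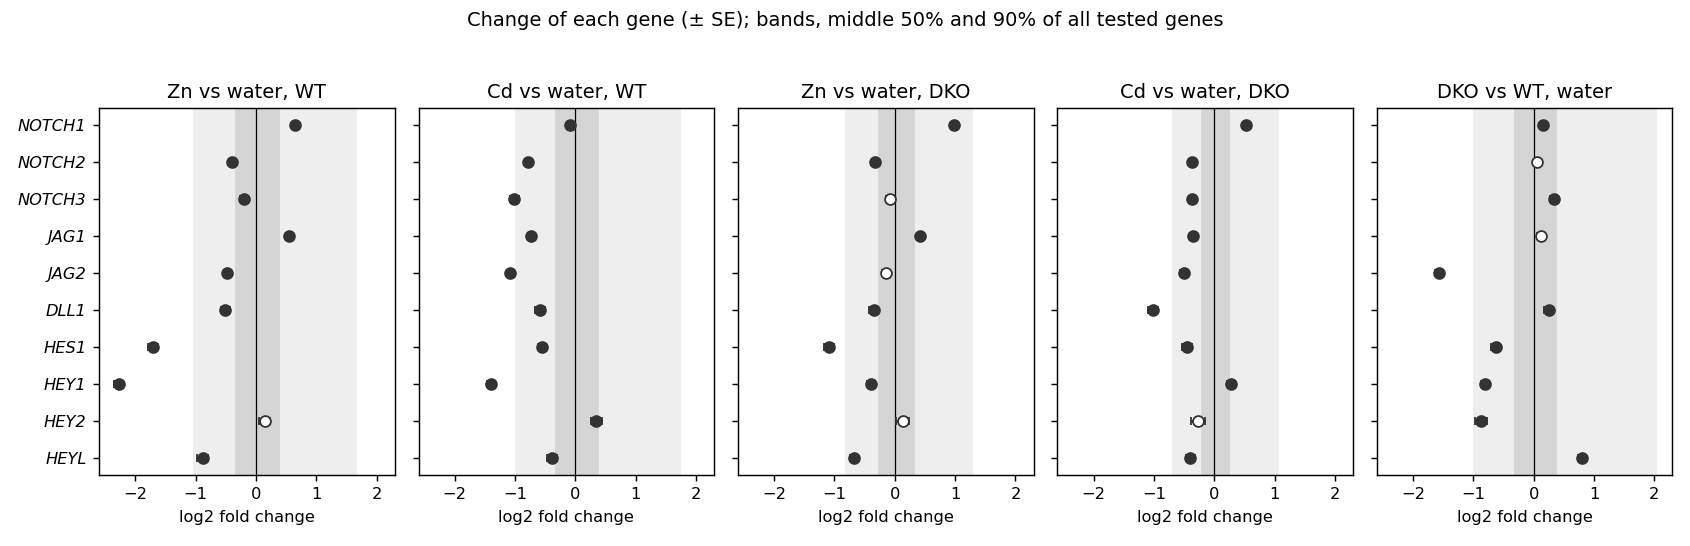
Log2 fold change (horizontal axis) of each of the 10 genes ± SE in 5 comparisons, filled where called and open where not. The bands hold the middle 50% and 90% of all tested genes. HEY1 and HES1 lie far to the left for zinc in wild type, at -2.27 and -1.70, and JAG2 lies lowest for knockout against wild type in water, at -1.57.

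Set directly against each other in wild type, cadmium left more of 3 repressors than zinc did. HES1 was higher in cadmium by 1.15 ± 0.08, HEY1 by 0.87 ± 0.09 and HEYL by 0.50 ± 0.09. All 3 receptors and both Jagged ligands were lower in cadmium, by 0.39 ± 0.04 for NOTCH2 up to 1.29 ± 0.05 for JAG1. HEY2 (0.20 ± 0.09) was not called. For this pair of groups same-numbered libraries deviated together, and with a replicate block HEY2 was called at the same 0.20. Without the block these are 3 higher and 5 lower of 10, with 52.3% of all tested genes called (27.3% higher and 25.0% lower). In the knockout 3 were higher and 6 lower, with 48.2% of all genes called (24.0% higher and 24.3% lower). The same 3 repressors were higher, HES1 by 0.65 ± 0.09, HEY1 by 0.67 ± 0.07 and HEYL by 0.28 ± 0.07. NOTCH2, at -0.04 ± 0.03, was the 1 of the 10 not called there.

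In water, the knockout had less of 3 repressors and of JAG2, and more HEYL. HES1 differed from wild type by -0.63 ± 0.07, HEY1 by -0.80 ± 0.06 and HEY2 by -0.87 ± 0.10, while HEYL was higher by 0.80 ± 0.07. NOTCH1 (0.15 ± 0.04), NOTCH3 (0.34 ± 0.06) and DLL1 (0.25 ± 0.07) were higher by smaller amounts. JAG1 (0.11 ± 0.05) and NOTCH2 (0.06 ± 0.03) were not called. In all 4 were higher and 4 lower, against 62.9% of all tested genes called (30.8% higher and 32.1% lower).

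The genotype order of HEY1 turned with the metals. In zinc HEY1 was higher in the knockout by 1.08 ± 0.09 and in cadmium by 0.88 ± 0.07, against the lower level in water. HES1 did not differ by the test in zinc (-0.03 ± 0.10) and was lower in the knockout in cadmium (-0.53 ± 0.08). The receptors were all higher in the knockout in both metals, NOTCH1 by 0.49 ± 0.04 and 0.77 ± 0.04, NOTCH2 by 0.12 ± 0.03 and 0.47 ± 0.04, and NOTCH3 by 0.46 ± 0.07 and 0.98 ± 0.07. JAG2 (-1.24 ± 0.06 and -0.99 ± 0.07) and HEY2 (-0.88 ± 0.10 and -1.48 ± 0.10) kept their lower level, and HEYL its higher one (1.0 ± 0.09 and 0.79 ± 0.08). In zinc 6 of 10 were higher and 2 lower, against 66.7% of all genes called (34.0% higher and 32.7% lower), and in cadmium 6 were higher and 3 lower, against 67.1% (32.6% higher and 34.5% lower).

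The difference of a response between genotypes is the log2 change in the knockout minus that in wild type. For zinc it was called for 4 of the 10 genes, all positive, where 24.6% of all tested genes were called (14.1% positive and 10.5% negative). HEY1 had 1.88 ± 0.11, HES1 0.60 ± 0.12, NOTCH1 0.34 ± 0.06 and JAG2 0.33 ± 0.08. For HEY1 and HES1 the value is a smaller fall in the knockout, and for NOTCH1 a larger rise. JAG2 fell in wild type, and its change in the knockout was not called. For cadmium 8 were called, 6 positive and 2 negative, where 28.1% of all genes were called (14.0% positive and 14.1% negative). HEY1 had 1.68 ± 0.10, NOTCH3 0.65 ± 0.10, NOTCH1 0.62 ± 0.06, JAG2 0.58 ± 0.09, NOTCH2 0.41 ± 0.05 and JAG1 0.38 ± 0.08. The negative values were DLL1 at -0.42 ± 0.12, which fell further in the knockout, and HEY2 at -0.61 ± 0.15, which rose in wild type. HES1 (0.10 ± 0.11) and HEYL (-0.01 ± 0.11) were not called for cadmium.

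**Figure D4:**
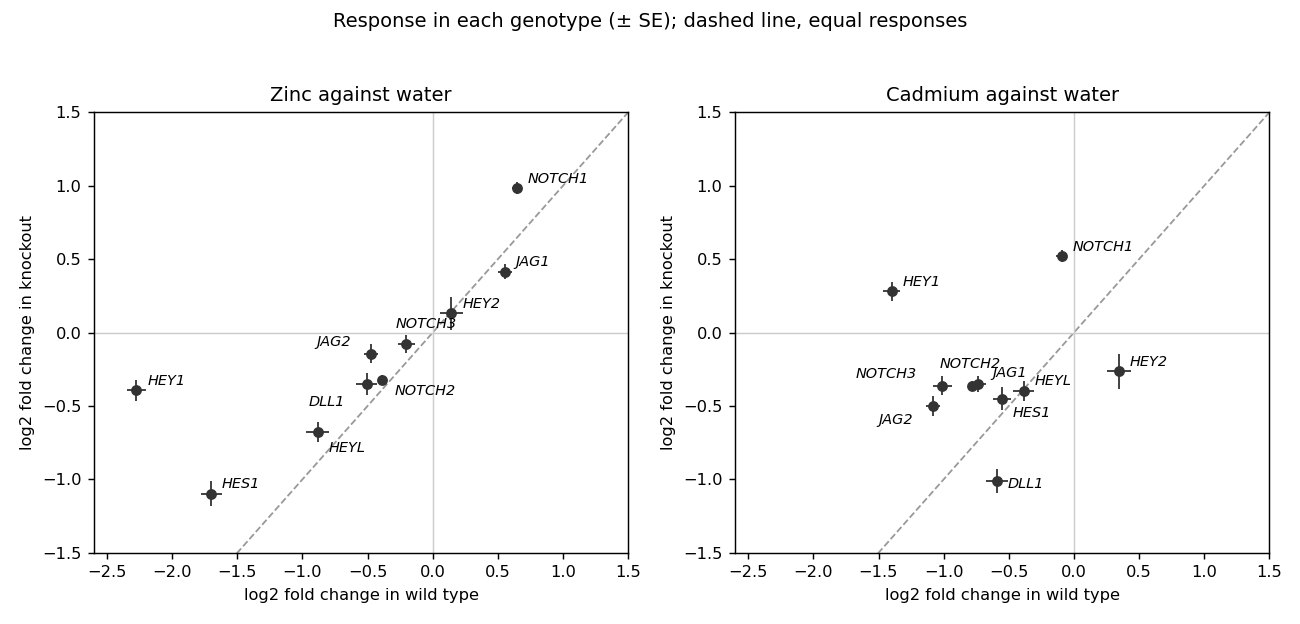
Log2 fold change against water in wild type (horizontal axis) and in the knockout (vertical axis) for the 10 genes, zinc left and cadmium right, with bars of 1 SE. On the dashed line both responses would be equal. HEY1 lies farthest above the line in both panels, with differences of 1.88 and 1.68, and DLL1 and HEY2 lie below it in the cadmium panel.

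The genes whose pattern over the 18 libraries was most like that of a member were found by Pearson's r of log2(CPM + 0.5) among 11068 tested genes with a mean of at least 5 CPM. The 18 libraries form 6 groups, so r mostly reflects 6 group levels, and it is given as a description only. For HES1 the leading genes were PELP1 (0.981), TRUB2 (0.978) and PANK4 (0.976). For JAG1 they were SESN3 (0.992), UBN1 (0.980) and PDPR (0.975). HEY1 was most like MYC (0.981), then FEN1 (0.959) and TAOK2 (0.951). The leading genes of the others were MEF2D for NOTCH1 (0.969), LONP2 for NOTCH2 (0.971), PIP5K1C for NOTCH3 (0.978), TERT for JAG2 (0.987), ZNF174 for DLL1 (0.952), SIAH2 for HEY2 (0.975) and GALNT6 for HEYL (0.985).

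The rest of the pathway was followed in 86 further genes in 9 lists by role, of which 81 were tested. These lists, too, were drawn up with earlier results known. The genes named from them, RBPJ excepted, are taken from those with the highest and the lowest called change of each list in a comparison. Calls are by edgeR's quasi-likelihood test with Benjamini-Hochberg adjustment. As the choice used these same data, the adjusted p-values of the named genes are given as a description. For zinc in wild type 23 of the 81 were higher and 32 lower. This is 67.9% called against 61.3% of all tested genes, with a median of -0.02. Corresponding counts were 23 and 38 for cadmium in wild type (75.3% called against 61.7% of all tested genes), 27 and 22 for zinc in the knockout (60.5% against 55.9%), and 21 and 23 for cadmium in the knockout (54.3% against 47.0%). In the knockout in water 33 were higher and 34 lower than in wild type (82.7% called against 62.9%). Pathway genes thus moved in both directions in each of these comparisons. The counts by list below stand beside shares of all tested genes, higher and lower, of 29.4% and 32.0% for zinc in wild type, 30.0% and 31.7% for cadmium in wild type, 28.2% and 27.7% for zinc in the knockout, 23.2% and 23.8% for cadmium in the knockout, and 30.8% and 32.1% for the knockout in water.

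Receptor processing was mixed. Of 9 receptor cleavage genes, 3 rose and 5 fell with each metal in wild type. In the knockout 2 rose and 4 fell with zinc, and 1 rose and 4 fell with cadmium. APH1B, a gamma-secretase subunit, fell in wild type by 0.41 ± 0.07 in zinc and 0.40 ± 0.07 in cadmium (edgeR adjusted p = 3.21e-06 and 4.96e-06). ADAM10, a protease that makes the first cut after ligand binding, was higher in the knockout in water by 0.53 ± 0.04 (edgeR adjusted p = 7.98e-15). Of 9 genes that glycosylate the receptors, 0 rose and 3 fell with zinc in wild type, and 3 rose and 5 fell with cadmium. In the knockout 1 rose and 4 fell with zinc, and 0 rose and 4 fell with cadmium. POGLUT1, which adds O-linked glucose to EGF repeats, fell by 0.64 ± 0.06 with zinc in wild type (edgeR adjusted p = 1.03e-12), by 0.70 ± 0.06 with zinc in the knockout (edgeR adjusted p = 1.05e-13) and by 0.80 ± 0.06 with cadmium there (edgeR adjusted p = 8.68e-15). LFNG, the Fringe glycosyltransferase that changes which ligands a receptor answers to, was higher in the knockout in water by 1.45 ± 0.15 (edgeR adjusted p = 1.24e-10).

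Ligand endocytosis differed between the genotypes in both directions. Of its 6 genes, 3 were higher and 3 lower in the knockout in water. NEURL1, a ubiquitin ligase for Notch ligands, was higher by 2.95 ± 0.14 (edgeR adjusted p = 1.43e-20) and MIB2, another such ligase, lower by 0.61 ± 0.06 (edgeR adjusted p = 2.88e-11). Cadmium in wild type lowered 5 of the 6 and raised 0, while zinc there raised 1 and lowered 1. In the knockout zinc raised 1 and lowered 0, and cadmium raised 1 and lowered 2. NEURL1B showed a difference of the cadmium response of 1.05 ± 0.21 (edgeR adjusted p = 0.000129), falling by 0.70 ± 0.18 in wild type and rising by 0.35 ± 0.10 in the knockout. The rise of NEURL1B lost its call with library size alone (0.23, edgeR adjusted p = 0.0579) and without replicate 1 of the cadmium-treated knockout (0.29, edgeR adjusted p = 0.0512).

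In the nuclear activation complex, MAML2, a Mastermind-like coactivator, rose by 0.26 ± 0.09 with zinc in wild type (edgeR adjusted p = 0.00804), and KAT2A, a histone acetyltransferase, fell by 0.45 ± 0.04 (edgeR adjusted p = 1.13e-13). The call of MAML2 was lost without replicate 1 of wild type in water or replicate 1 of zinc-treated wild type (0.21 in each case). RBPJ, shown as the pathway's DNA-binding protein, was named after its values were seen and is given as a description. It lay at 132, 127 and 132 CPM in wild type in water and at 94.9, 97.4 and 99.97 CPM in zinc. These groups did not overlap, and the fall was 0.42 ± 0.04. Of the 9 genes of this list, 2 were higher and 7 lower in the knockout in water. KAT2B, a relative of KAT2A, was lower by 0.80 ± 0.06 (edgeR adjusted p = 1.11e-14). Of 15 corepressor genes, 4 rose and 8 fell with zinc in wild type, and 5 rose and 7 fell with cadmium. CIR1, a corepressor that binds RBPJ, rose with both metals in wild type, by 0.87 ± 0.06 and 0.83 ± 0.06 (edgeR adjusted p = 3.37e-15 and 1.56e-14). SPEN, the RBPJ corepressor scaffold also known as SHARP, fell by 0.57 ± 0.03 with cadmium in wild type (edgeR adjusted p = 2.09e-18) and was lower in the knockout in water by 1.17 ± 0.03 (edgeR adjusted p = 3.55e-28).

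Of 11 receptor turnover genes, 7 rose and 3 fell with zinc in wild type and 8 rose and 2 fell with zinc in the knockout. With cadmium 5 rose and 1 fell in wild type, and 5 rose and 2 fell in the knockout. FBXW7 is the ubiquitin ligase subunit that marks the Notch intracellular domain and MYC for degradation. With zinc it rose by 1.07 ± 0.04 in wild type and 0.73 ± 0.04 in the knockout (edgeR adjusted p = 5.49e-23 and 1.24e-17). In cadmium FBXW7 fell by 0.37 ± 0.05 in the knockout (edgeR adjusted p = 3.06e-08). NEDD4L, a ubiquitin ligase, rose with cadmium by 1.10 ± 0.04 in wild type (edgeR adjusted p = 9.47e-24) and by 0.62 ± 0.04 in the knockout (edgeR adjusted p = 6.9e-16). NEDD4, its paralogue, was almost absent from wild type, with 5, 5 and 11 counts summed over 3 libraries in water, zinc and cadmium. The knockout had 2260, 2402 and 2763 counts, which in water is a ratio of 430 after scaling to library size (exact 95% counting interval 184 to 1324). That interval covers the sampling of reads alone and not the spread between libraries. The fold from edgeR in water was 385.

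Other HES genes and Notch targets moved in both directions. Of 7 tested HES and related genes, 2 rose and 2 fell with zinc in wild type, and 6 rose and 0 fell with zinc in the knockout. With cadmium 0 rose and 4 fell in wild type, and 3 rose and 1 fell in the knockout. HES4, a close relative of HES1, rose by 0.32 ± 0.07 with zinc in wild type (edgeR adjusted p = 0.000183; 0.19 without replicate 2 of wild type in water) and was lower in the knockout in water by 1.63 ± 0.08 (edgeR adjusted p = 3.31e-20). HES6, an antagonist of HES1, fell by 0.33 ± 0.07 with cadmium in the knockout (edgeR adjusted p = 6.4e-05). Of 9 other targets tested, 2 rose and 3 fell with zinc in wild type and 5 rose and 1 fell with zinc in the knockout. With cadmium 3 rose and 4 fell in wild type, and 5 rose and 1 fell in the knockout. CDKN1A, a cell cycle inhibitor, rose with zinc by 1.69 ± 0.05 (log2) in wild type and 1.88 ± 0.05 in the knockout (edgeR adjusted p = 1.09e-28 in the latter). With cadmium it rose by 1.32 ± 0.05 in wild type (edgeR adjusted p = 5.72e-23) and, as a linear fold, 2.38 times in the knockout (edgeR adjusted p = 2.82e-22). MYC fell by 3.97 ± 0.07 with zinc in wild type (edgeR adjusted p = 2.89e-34), and its difference of the zinc response was 2.92 ± 0.10 (edgeR adjusted p = 8.14e-24). NRARP, a Notch target that feeds back on the pathway, fell by 0.44 ± 0.04 with cadmium in the knockout (edgeR adjusted p = 3.77e-11). Its fall there was not shared by zinc, since cadmium lay below zinc by a larger 0.94 ± 0.04 (edgeR adjusted p = 1.11e-20). CCND1, a cyclin, was higher in the knockout in water by 4.03 ± 0.05 (edgeR adjusted p = 4.81e-40).

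**Figure D5:**
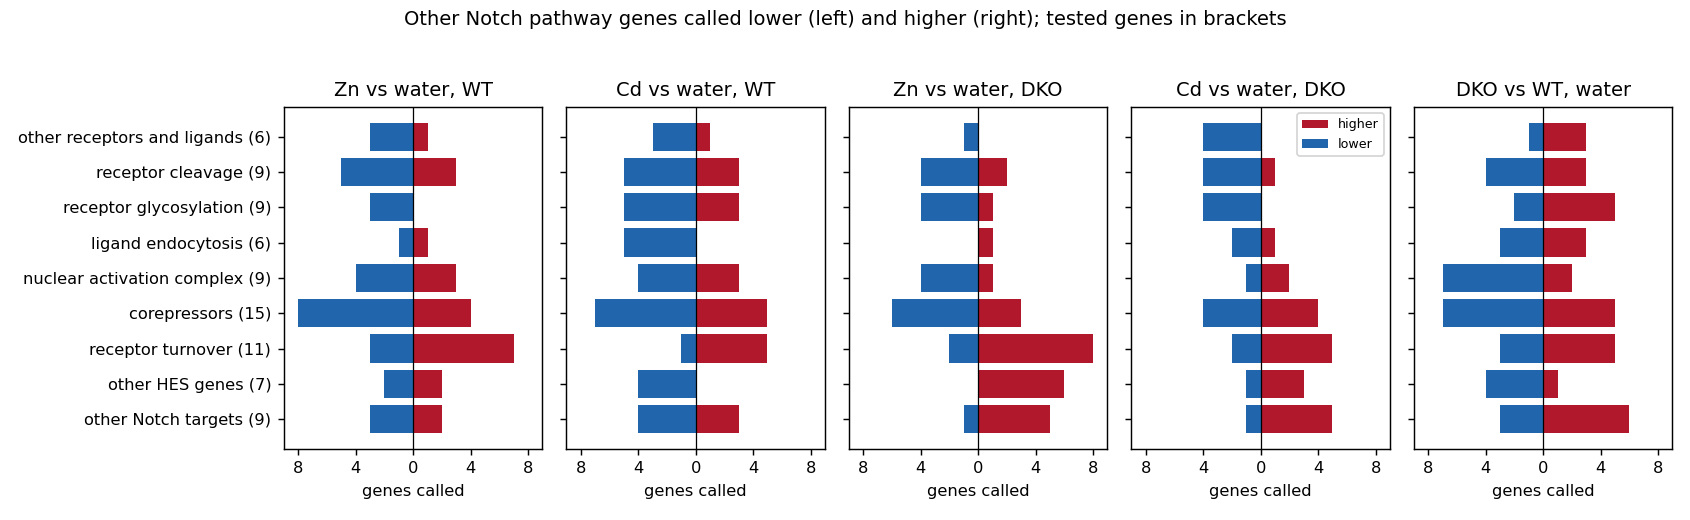
Number of other Notch pathway genes called lower (bars to the left) and higher (bars to the right) in 5 comparisons, by list, with the number tested in brackets. Bars run in both directions for most lists. Receptor turnover has 7 higher and 3 lower with zinc in wild type, and other HES genes have 6 higher and 0 lower with zinc in the knockout.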

How the data were processed

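Polyadenylated RNA was extracted with TRIzol and sequenced from stranded TruSeq libraries, per the labels' protocols. The values are read counts per Ensembl gene as deposited by the authors. STAR and the builds hg38 and GRCh38.p13 are named in the submitters' processing notes, with no version, annotation or counting rule given. The main counts join both strands. Genes were named by GENCODE 29 (58216 of 58336 IDs matched).

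Counts were filtered with filterByExpr (minimum count 10), scaled by TMM and fitted with edgeR 4.0.16 (glmQLFit, glmQLFTest; R 4.3.3) as 6 groups of 18 libraries, with 11 comparisons and Benjamini-Hochberg adjustment over 19393 genes at 0.05. SE is the log2 change divided by the square root of F. The median coefficient of biological variation was 3.93%. CPM used TMM-scaled totals, and exon length per gene was that of all its annotated exons joined. Zinc- and cadmium-treated wild type was the only pair of groups with every correlation of same-numbered libraries over 0.1 (0.132 to 0.17). Other pairs of groups had single values over 0.1, with 0.093 to 0.31 for cadmium-treated wild type and knockout. The test was checked on simulated counts, with changes put only into zinc-treated wild type, in 50 genes per fold. At 1.25-fold it recovered 76% for zinc in wild type and 50% for the difference of the zinc response. At 2-fold it recovered 98% and 96%. Changes in a large share of genes, as called in these data, were not simulated. Alternatives were DESeq2 1.42.0, other scalings, filters, strands, fits and each library left out. Further genes were named, per list and comparison, as the called ones with the highest and lowest change and a mean of at least 1 CPM. A selection of these is given in the text. For the likeness of patterns, genes with clone names were left out. The 10 genes and all lists were chosen with earlier results of these data known.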

Additional observations from a re-analysis of the deposited data

Results flagged for a closer look

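The following values are differences of a metal response between genotypes, as log2 change in the knockout minus that in wild type, each past the threshold of edgeR's test of the difference itself. All are a description, as the choice of the members and of the lists used these data.

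For zinc, the members were HEY1 at 1.88, HES1 at 0.60, NOTCH1 at 0.34 and JAG2 at 0.33. Among the other pathway genes MYC stood highest at 2.92, followed by BHLHE40 at 0.99, DLK2 at 0.65, DTX2 at 0.60, EPN2 at 0.39, SPEN at 0.34, KAT2A at 0.25 and APH1A at 0.15. Lower responses in the knockout were found for NEURL1 at -0.58, CREBBP at -0.37, ITCH at -0.35, GXYLT1 at -0.34, NCOR1 at -0.29, ADAM17 at -0.26 and IGF1R at -0.18. The DLK2 value was 1.39 with stranded counts. The call of NEURL1 was lost without any 1 of 9 libraries, and its value was smallest without replicate 3 of zinc-treated wild type (-0.35, edgeR adjusted p = 0.301).

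For cadmium, the members were HEY1 at 1.68, NOTCH3 at 0.65, NOTCH1 at 0.62, JAG2 at 0.58, NOTCH2 at 0.41, JAG1 at 0.38, DLL1 at -0.42 and HEY2 at -0.61. Other pathway genes with positive values were MYC at 2.27, NEURL1B at 1.05, BHLHE41 at 1.01, SPEN at 0.47, DTX4 at 0.35, RBPJ at 0.28 and APH1A at 0.15. Negative values belonged to CIR1 at -0.58, NEDD4L at -0.48, EOGT at -0.40, CREBBP at -0.25, IGF1R at -0.25 and ADAM17 at -0.22. The call of ADAM17 was lost without replicate 1 of the knockout in water (-0.19, edgeR adjusted p = 0.0533). That of DTX4 was lost without replicate 3 of cadmium-treated wild type (0.29) or without replicate 1 (0.32) or 3 (0.33) of wild type in water. That of APH1A was lost when only the 4 groups compared were fitted (0.12). The HEY1 and MYC differences were of the same sign in both metals, which share the water libraries.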

How the results depend on the processing

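The 89 called changes of the 10 genes gave 2314 values under 26 alternatives, of which 2304 kept direction and call, 10 lost the call and 0 reversed. Of the lost calls 9 were NOTCH1 with cadmium in wild type (-0.06 to -0.10, and -0.09 with DESeq2) and 1 was NOTCH3 with zinc in wild type. The 21 uncalled changes gave 546 values, of which 32 became called and 14 reversed. Reversals all lay near 0. Leaving out each library in turn, HES1 in the knockout against wild type in zinc ran from -0.11 to 0.062, JAG1 in that comparison from -0.089 to 0.0017, the cadmium difference of HEYL from -0.068 to 0.057 and the zinc difference of HEY2 from -0.12 to 0.10. With library size alone JAG1 stood at 0.00054, and with no filter HEYL stood at 0.018. Single libraries also decided calls for DLL1 in the knockout in cadmium (-0.22 without replicate 2 of cadmium-treated wild type) and for the zinc difference of JAG1 (-0.20 without replicate 3 of zinc-treated wild type). JAG1 in the knockout in water became called without replicate 1 of wild type in water (0.14), replicate 3 of zinc-treated (0.11) or replicate 3 of cadmium-treated wild type (0.11), and in 6 other alternatives. JAG2 with zinc in the knockout became called without replicate 1 of the zinc-treated knockout (-0.20), replicate 3 of the cadmium-treated knockout (-0.14) or replicate 3 of zinc-treated wild type (-0.14). HEY2 became called with cadmium in the knockout without replicate 1 of that group (-0.35) or replicate 2 of the knockout in water (-0.38). HEY2 in cadmium against zinc in wild type became called without any 1 of 5 libraries (0.20 to 0.25). The 169 changes of other pathway genes taken by the naming rule gave 4382 values, of which 4314 kept direction and call, 68 in 19 changes lost the call and 0 reversed. Counts of called genes stayed within 1.5 times of the main counts in all alternatives run.

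Replicate numbers are shared between groups, but no label ties them to a batch, and in 14 of 15 pairs of groups not every pair of same-numbered libraries correlated over 0.1. Deviations of same-numbered libraries correlated from -0.06 to 0.31 (median 0.06 over 45 pairs of libraries, 13 over 0.1). Those of different number ran from -0.29 to 0.14 (median -0.03 over 90 pairs, 2 over 0.1). Deviations are taken from group means, so the 2 sets are not independent. In all, 16 of 18 libraries correlated best with their own number, as a hint only. With a replicate block more genes were called in every comparison, for instance 12025 against 11892 for zinc in wild type. For cadmium in the knockout there were 9301 against 9110, for the zinc difference 5072 against 4767 and for the cadmium difference 5698 against 5449. The block took the call from 0 changes of the 10 genes. The block made 4 uncalled changes of the 10 genes called: HEY2 in cadmium against zinc in wild type (0.20), HEY2 with cadmium in the knockout (-0.27), JAG2 with zinc in the knockout (-0.15) and JAG1 in the knockout in water (0.11). The least abundant gene, HEY2, had an SE of up to 0.15 (log2). Causes of these shifts were not tested.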

Other observations

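Several family members were near the limit of detection in these cells. DLK1, HES3, HES5, DTX1 and DTX3 did not pass the filter, with at most 3, 2, 14, 10 and 4 counts in any library. Of the other Delta-like genes, DLL4 had group means of 0.40 to 1.22 CPM, and DLL3 had 5.90 to 9.43 CPM. DLL3 libraries had 5.69, 5.90 and 6.11 CPM in zinc-treated wild type and 10.6, 8.96 and 8.76 CPM in the zinc-treated knockout, with no overlap. In zinc it was higher in the knockout by 0.67 ± 0.09 (edgeR adjusted p = 3.51e-08).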
